A study of Homo sapiens with 15 samples.

Results

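LNCaP cells carrying any of 4 hairpins were compared as one set with LNCaP cells carrying the control vector, to find genes that moved to the same side of the control whichever chromatin gene was targeted. LNCaP is an established human line from a prostate carcinoma that responds to androgen, and all cells carried the genotype label WT. They grew in RPMI medium with serum, were infected with lentiviruses for 4 to 5 days, and were profiled by RNA sequencing of total RNA. The control group, pLKO, received a control shRNA. The groups shPALI1, shG9a, shJarid2 and shsuz12 received shRNA against PALI1, G9a, JARID2 and SUZ12. Each of the 5 groups had 3 libraries, so 12 of the 15 libraries carried a targeting hairpin. The labels give 1 hairpin name per target, do not say which group was harvested on which day, and do not say whether the 3 libraries of a group came from separate cultures. The p-values therefore speak to variation among these libraries only, and part or all of it may be technical.

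A gene was a member when the means of all 4 hairpin groups lay on one side of the pLKO mean. Means were taken on log2(RPKM + 1), where RPKM is reads per kilobase of gene model and per 1e6 reads, and each hairpin group carried equal weight. Of 12715 genes with at least 1 RPKM in at least 3 libraries, 3735 (29.4%) met this rule. With the values as deposited, 1332 lay above pLKO (10.5%) and 2403 below it (18.9%). This imbalance depends on scaling. Median ratio scaling gave 1705 above and 1847 below, quantile normalization 1698 and 1936, and rescaling to a common sum 1632 and 1894. Among the genes above, 194 had less than 1 RPKM in every pLKO library and passed the filter only through the hairpin libraries, and 6 genes below had less than 1 RPKM in every hairpin library. The rule uses the same values as the contrast of hairpins against pLKO, so its counts are descriptions. All 4 hairpin comparisons share the 3 pLKO libraries. A difference common to the hairpins and a difference peculiar to the pLKO libraries cannot be told apart in this design.

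SUZ12 is a core subunit of Polycomb repressive complex 2 (PRC2), which methylates lysine 27 of histone H3, and JARID2 and PALI1 are accessory proteins of that complex. G9a, the product of EHMT2, methylates lysine 9 of histone H3. Both marks are associated with gene silencing. A short hairpin RNA is processed by the cell's own RNA interference machinery into a small RNA that degrades matching messages, and lentiviral delivery and the small RNA can themselves alter expression. For that reason studies of this kind often ask which changes recur with unrelated hairpins. Here the pLKO cells were also infected and received a control shRNA, so effects they share with the hairpin cells are not seen.

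Depth estimated from the values was 10.56 to 19.36 M reads, so that 1 RPKM in a 2 kb gene stood for 21.1 to 38.7 reads. The luminal prostate genes KRT8 (72.5 to 206 RPKM), FOXA1 (91.1 to 136 RPKM) and FOLH1 (107 to 189 RPKM) were present in all 15 libraries. Few markers of other cell types passed the filter: 4 of 9 basal, 2 of 10 neuroendocrine, 2 of 9 fibroblast, 1 of 8 endothelial and 1 of 10 immune markers. NEUROD1, CD3E and MS4A1 were at 0 in every library. The third shJarid2 library stood apart, correlating across genes at 0.975 and 0.978 with the other libraries of its group, which correlated at 0.992 with each other. Counts without it are given where they differ most. Summed RPKM of the other cell types' markers stayed low, from 7.18 to 10.6 for basal markers, 6.98 to 14.9 for neuroendocrine, 1.88 to 6.18 for fibroblast, 0.794 to 2.82 for endothelial and 2.33 to 5.36 for immune markers over the 15 libraries.

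The targeted genes were examined first. C10orf12, the row that carries the PALI1 exon, changed by -1.37 on the log2 scale with shPALI1 and by 0.21, -0.46 and -0.30 with shG9a, shJarid2 and shsuz12. LCOR, from the same locus, changed by -0.58 with shPALI1 and by -0.22, -0.33 and 0.58 with the others. EHMT2 changed by -1.27 with shG9a, against 0.08 with shPALI1, -0.37 with shJarid2 and -0.24 with shsuz12. JARID2 changed by -1.90 with shJarid2, against -0.19 with shPALI1, -0.09 with shG9a and 0.45 with shsuz12. SUZ12 changed by -2.58 with shsuz12 and by -0.25, -0.09 and -0.13 with the other hairpins in the order shPALI1, shG9a and shJarid2. Each target was lowest in the group that carries its name. SUZ12 is thereby itself a member below pLKO, but it passed the test with 1 hairpin only.

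In the contrast of the mean of the 4 hairpin groups with pLKO, 5488 genes passed (43.2% of those tested; limma, Benjamini-Hochberg adjusted p under 0.05). Of these, 2091 were higher with the hairpins (16.4%) and 3397 lower (26.7%). The split depends on scaling. After median ratio scaling it was 2655 higher and 2682 lower, after quantile normalization 2706 and 2917, and after rescaling to a common sum 2500 and 2634. The median change of all genes was -0.053 as deposited and -0.001 under median ratio scaling, so list medians are read against it. Of the genes that passed, 2934 were members, 1003 above and 1931 below. The other 2554 passed with 1 or more hairpin groups on the opposite side.

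The pLKO group had the highest of the 5 group means for 18.9% of genes and the lowest for 10.7%, ties included. The same figures were 26.4% and 25.8% for shJarid2, 21.3% and 21.6% for shPALI1, 17.8% and 26% for shsuz12, and 15.6% and 15.9% for shG9a. The pLKO group was thus at one end or the other for 29.6% of genes, where the hairpin groups ranged from 31.5% (shG9a) to 52.2% (shJarid2). No test was made of these shares. They use the values as deposited, and the balance of highest and lowest in pLKO depends on scaling as the member counts do.

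**Figure D1:**
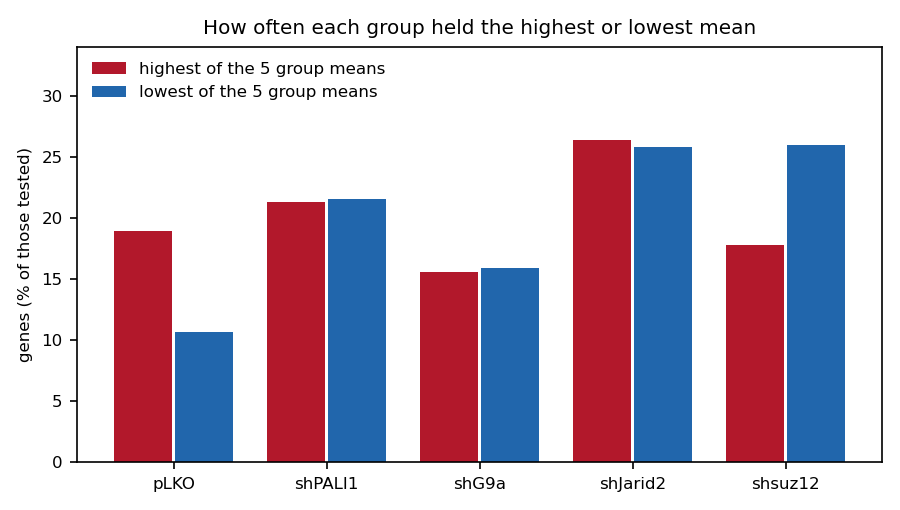
Bars give the share of the 12715 tested genes (%, vertical axis) for which each of the 5 groups had the highest (red) or the lowest (blue) mean log2(RPKM + 1). The pLKO bars stand at 18.9% and 10.7%; shJarid2 has the tallest red bar, and shJarid2 and shsuz12 the tallest blue ones.

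The size of change differed between hairpins for most members. An F test among the 4 hairpin groups, which does not use the pLKO mean, called 10668 of all tested genes (83.9%). It rests on the same hairpin means as the side rule and so is not independent of it. It called 2460 of the 2934 members that passed (83.8%), a share near that background. For the members that passed, the smallest of the 4 changes was typically a small part of the largest, with a median ratio of 0.22. It was under 0.25 of the largest for 1636 genes (55.8%) and over 0.5 of it for 303 (10.3%). Over all members, the median mean change was 0.36 above and -0.38 below, but the median of the smallest change was 0.12 in both directions. All 4 changes reached 1.5-fold in 56 genes above and 56 below.

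Counted by hairpin, 726 members passed the test on their side with all 4 hairpins, 1052 with 3, 950 with 2, 630 with 1 and 377 with none. The 726 comprise 267 rises (2.1% of genes tested) and 459 falls (3.61%). All 12 hairpin libraries lay above all 3 pLKO libraries for 336 genes (2.64%) and below them for 677 (5.32%). Without pLKO replicate 1 the first of these counts was 540. Among the 1931 members below pLKO that passed the contrast, the largest fall lay with shsuz12 for 849, shJarid2 for 481, shG9a for 344 and shPALI1 for 257. When the difference between hairpins was counted as spread, by treating the 12 hairpin libraries as one group, 179 genes were called higher (1.41%) and 256 lower (2.01%). All 435 were members. That fit takes the 12 libraries as independent although 3 share each hairpin, so it understates the uncertainty from differences between hairpins. The same limit holds wherever the hairpins are taken as one group below.

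**Figure D2:**
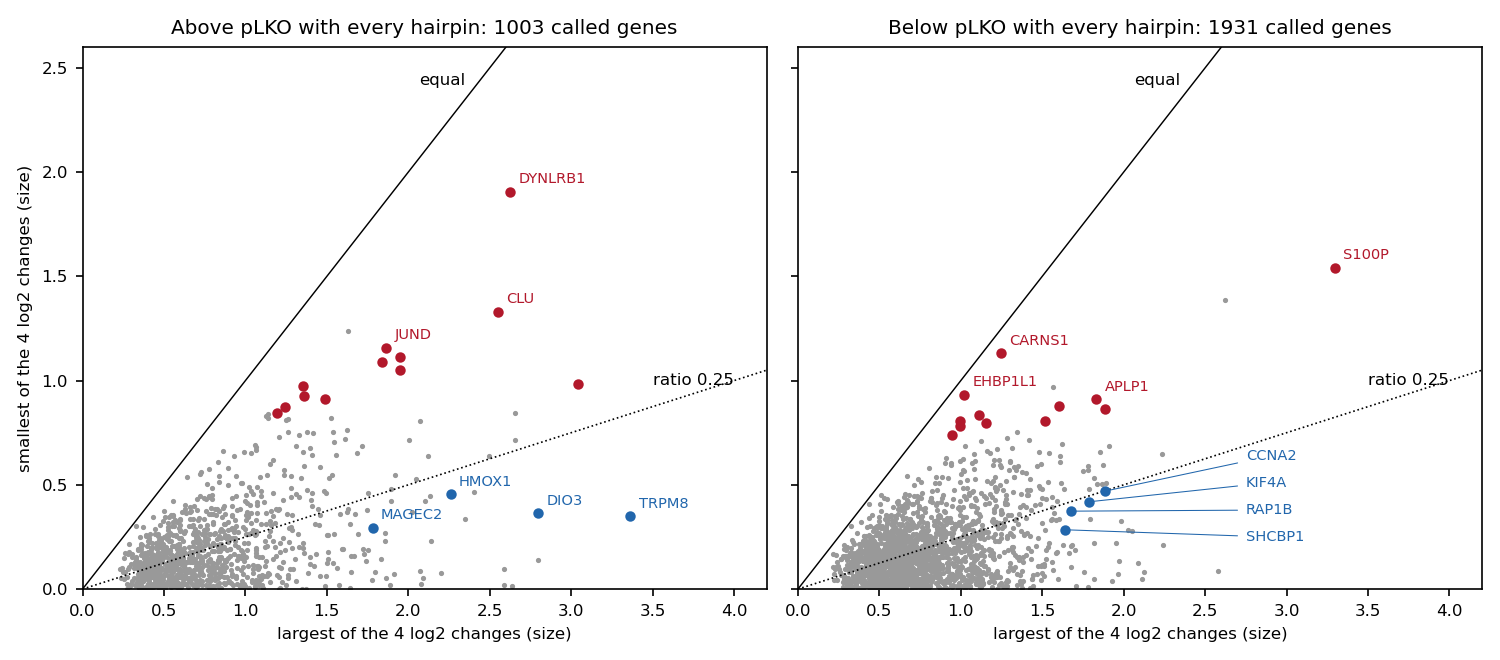
Each point is a member that passed the contrast, with the size of its largest log2 change over the 4 hairpins on the horizontal axis and of its smallest on the vertical axis; the solid line marks equal changes and the dotted line a ratio of 0.25. Most points lie low, DYNLRB1, CLU and S100P (red, the 12 most shared genes each way) stand apart, and TRPM8 and DIO3 (blue, the uneven genes) lie far right near the bottom; the few grey points among the red ones include small RNAs and a pseudogene, which the naming rule skipped.

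At the edge of the rule, C2orf49 was just inside, with changes of 0.27, 0.26 and 0.26 with shPALI1, shG9a and shJarid2 and 0.00031 with shsuz12. NPAS2, a circadian transcription factor, was just inside through shPALI1, where its change was 0.00033. PEX6 changed by 0.20, 0.06 and 0.56 and lay just outside through shsuz12, whose change was 0.00 at 2 decimals and on the opposite side. LMNB2, which encodes lamin B2, lay just outside in the same way through shPALI1, with changes of -0.32, -0.39 and -0.46 for the other hairpins.

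The most shared rises are described first, ranked by the smallest of the 4 changes. DYNLRB1 encodes a light chain of cytoplasmic dynein, the motor that carries cargo toward microtubule minus ends (chr20:34516409-34540958, GRCh38). Its level was 13.7, 10.7 and 10.1 RPKM in the pLKO libraries, and in the 12 hairpin libraries it ranged from 42.2 through a median of 51.7 to 92.5 RPKM. No hairpin library came near the pLKO values. DYNLRB1 rose by 2.18 on the log2 scale (SE 0.10; limma adjusted p = 9.4e-09), a 4.91-fold difference in mean RPKM, with changes of 1.91, 2.23, 2.63 and 1.94 for shPALI1, shG9a, shJarid2 and shsuz12. The rise was not general in its complex. Among 20 tested dynein and dynactin subunits, 2 were higher (10%, against 16.4% of all genes) and 8 lower (40%, against 26.7%). With every hairpin, 4 lay above pLKO (20%, against 10.5%) and 4 below (20%, near the 18.9% of all genes). The median change was -0.11, against -0.05 for all tested genes. The other subunit that passed as higher was DYNLL2 (0.32). The subunit DYNLL1 fell by 0.52, with changes of -0.25, -0.81, -0.28 and -0.75 for shPALI1, shG9a, shJarid2 and shsuz12. The actin-capping subunit CAPZB fell by 0.46, mainly with shJarid2 (-1.13, against -0.07 with shsuz12). CAPZA1, another such subunit, fell by 0.42, mainly with shsuz12 (-1.30), and was no member, since it changed by 0.08 with shG9a. None of DYNLL1, CAPZB and CAPZA1 passed with the hairpins as one group, at adjusted p of 0.11, 0.31 and 0.5 in limma.

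CLU encodes clusterin, a secreted chaperone (chromosome 8). Its pLKO libraries read 5.93, 5.17 and 5.95 RPKM, and the hairpin libraries ranged from 14.2 through 32.0 to 45.8 RPKM. The groups did not overlap, and the 3 lowest hairpin values belonged to shsuz12, whose mean was 15.8 RPKM against 38.5, 34.7 and 31.5 RPKM in shPALI1, shG9a and shJarid2. CLU rose by 2.14 (SE 0.12; limma adjusted p = 1.7e-08). JUND encodes an AP-1 transcription factor subunit (chr19:18279760-18281622). It stood at 24.5, 19.9 and 15.95 RPKM in pLKO and at 41.7 to 92.3 RPKM, median 60.5, with the hairpins, again without overlap. JUND rose by 1.54 (SE 0.11; adjusted p = 2.2e-07 in limma), with changes between 1.16 and 1.86.

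MAPRE3 encodes EB3, which binds growing microtubule ends. It went from 3.97, 3.42 and 3.59 RPKM in pLKO to between 8.04 and 18.9 RPKM, and changed by 1.11, 1.35, 1.95 and 1.41 with the 4 hairpins. ST7 had very even controls, 8.55, 8.49 and 8.37 RPKM, against 17.1 to 34.9 RPKM with the hairpins. BCHE encodes butyrylcholinesterase and rose from 22.2, 27.5 and 23.7 RPKM to between 48.9 and 103 RPKM, highest with shPALI1. These 3 genes had mean changes of 1.46, 1.44 and 1.38. CBLN2, which encodes a secreted synaptic organizer, was under 1 RPKM in all pLKO libraries (0.755, 0.412 and 0.593) and between 1.93 and 12.4 RPKM with hairpins. It therefore passed the level filter only through the hairpin libraries. Its size of change varied widely, from 0.98 with shG9a to 3.04 with shsuz12.

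The remaining rises of this rank were smaller and closer to even. HSD17B10, a mitochondrial dehydrogenase that is also part of mitochondrial RNase P, stood at 48.5, 36.4 and 35.9 RPKM in pLKO and at 72.2 to 115 RPKM with hairpins. Its 4 changes, 0.97 to 1.35, did not pass the test of a difference among hairpins (adjusted p = 0.087 for the F test in limma). TBC1D13, a GTPase-activating protein for Rab proteins, rose by 1.13, FAM222B by 1.10 and DDA1, a component of DDB1-containing ubiquitin ligases, by 1.00. RPL10L, a retrocopy of the ribosomal protein gene RPL10, rose by 1.18; its reads may be shared with near-identical copies, so that value is uncertain. The values that ranked these 12 rises also decide their calls, so their calls are no separate evidence.

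S100P, a small calcium-binding protein, was the most shared fall (chr4:6693069-6697170). It read 21.7, 18.8 and 15.6 RPKM in pLKO and from 0.814 through 4.81 to 6.69 RPKM with the hairpins. The groups did not overlap, and shsuz12 was far below the rest, at a mean of 0.996 RPKM against 4.70, 5.75 and 5.41 RPKM. S100P fell by 2.07 (SE 0.14; limma adjusted p = 1e-07), 4.45-fold in mean RPKM. Of 6 tested S100 genes it was the only one that passed, and the others had mean changes from -0.51 (S100A4) to 0.14 (S100A1).

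KLK3 encodes prostate-specific antigen, a secreted protease and a classical androgen-responsive gene (chr19:50854915-50860764). It stood at 1160, 1129 and 1036 RPKM in pLKO and ranged from 262 through 459 to 730 RPKM with hairpins. Every hairpin library lay below every pLKO library, with group means of 300 RPKM in shPALI1, 364 RPKM in shG9a, 614 RPKM in shJarid2 and 594 RPKM in shsuz12. KLK3 fell by 1.31 (SE 0.10; limma adjusted p = 1.9e-07). The summed RPKM of the 15 luminal markers, KLK3 among them, ranged from 2181 to 2410 in pLKO and from 1151 to 2356 with hairpins, and in shJarid2, from 2040 to 2356, it overlapped pLKO. KLK3 makes up a large part of that sum. Of the 15 markers 7 were higher (46.7%, against 16.4% of all genes) and 5 lower (33.3%, against 26.7%), with a median change of 0.09. Fewer luminal cells and less RNA per cell cannot be told apart in bulk samples.

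SLC22A3, an organic cation transporter, was 53.4, 59.0 and 53.3 RPKM in pLKO and 16.98 to 31.0 RPKM with the hairpins. It had the smallest adjusted p of the contrast among the named genes, with a fall of 1.23 (SE 0.05; limma adjusted p = 2.1e-09). APLP1, a relative of the amyloid precursor protein, was 55.3, 52.2 and 48.8 RPKM in pLKO and 12.8 to 29.9 RPKM with hairpins, lowest with shJarid2. CARNS1, which makes carnosine, and EHBP1L1, a membrane-trafficking protein, fell by nearly equal amounts with all 4 hairpins. CARNS1 went from 7.71, 7.09 and 7.98 RPKM to a hairpin median of 2.73 RPKM, with changes of -1.25, -1.21, -1.14 and -1.13. EHBP1L1 went from 5.55, 5.59 and 5.30 RPKM to a median of 2.34 RPKM, with changes of -0.97, -1.02, -0.95 and -0.93. Neither passed the F test among hairpins, at adjusted p of 0.8 and 0.76 in limma, which does not show that their changes were equal.

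The other falls of this rank were EFEMP2, which encodes the matrix protein fibulin-4 (-0.92), ADGRB2, an adhesion receptor (-1.15), LRP8, a receptor of the LDL receptor family (-0.93), and PSMB10, an immunoproteasome subunit (-0.92). DTYMK, which phosphorylates thymidine monophosphate for DNA synthesis, fell by 0.84. TSC22D3, a glucocorticoid-induced leucine zipper protein, fell by 0.83. EFEMP2 was low throughout, at 2.62, 2.34 and 2.28 RPKM in pLKO and 0.465 to 1.13 RPKM with hairpins. PSMB10 was 30.8, 27.1 and 28.9 RPKM in pLKO and 11.1 to 19.2 RPKM with hairpins. DTYMK was 46.6, 41.1 and 36.8 RPKM in pLKO and 18.9 to 28.2 RPKM with hairpins. In all 3 the lowest group mean was that of shsuz12. As for the rises, the calls of these 12 follow from how they were chosen.

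**Figure D3:**
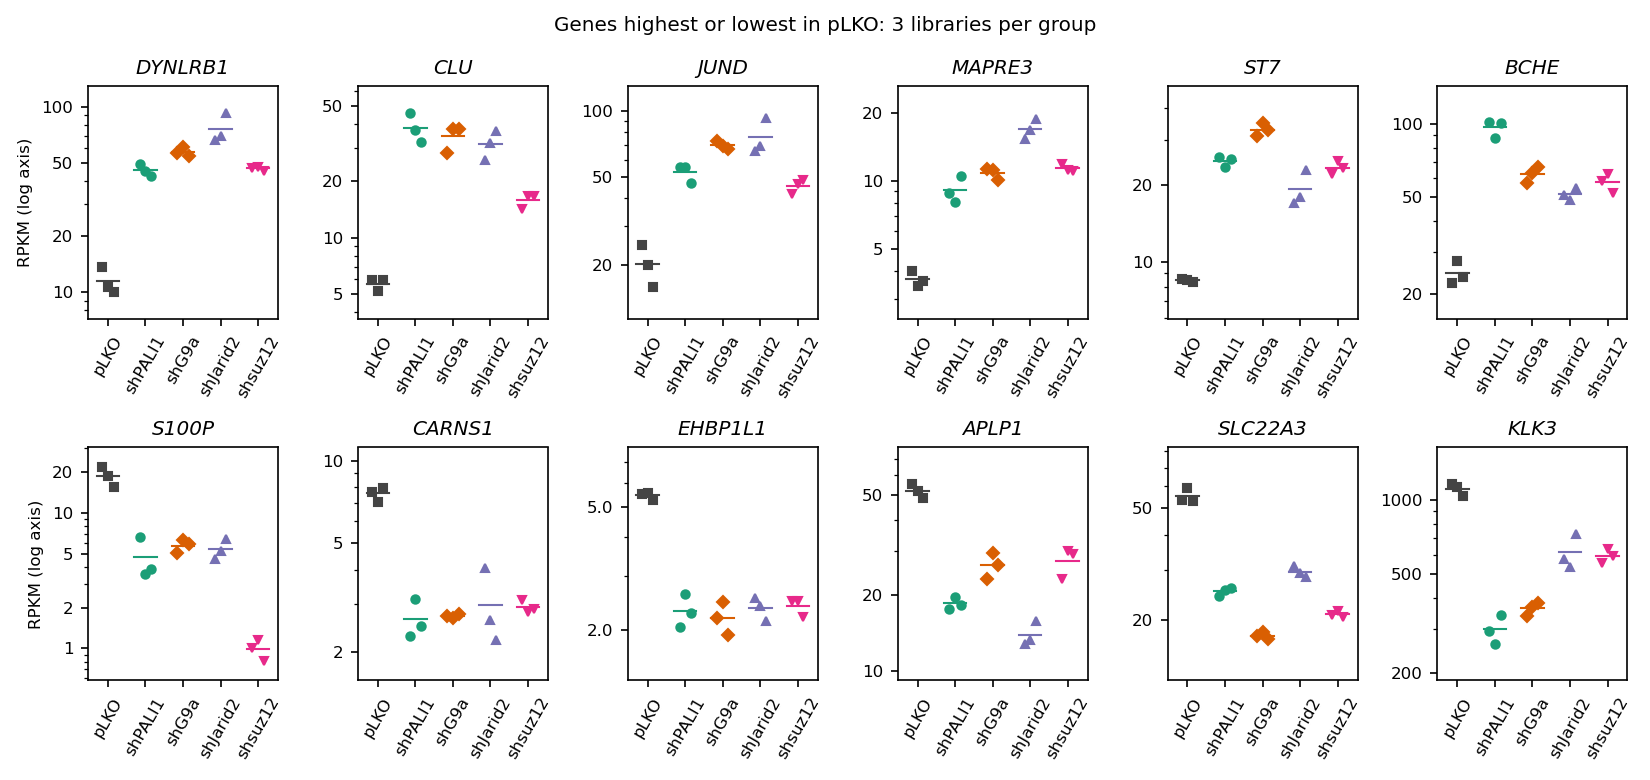
Each panel shows RPKM on a log axis for 1 gene, with 3 libraries per group as points and the group mean as a line; the top row holds the 6 most shared rises and the bottom row the 6 most shared falls. In every panel all 12 hairpin libraries lie on one side of the 3 pLKO libraries, and the hairpin groups differ among themselves, as in S100P, where shsuz12 lies at a mean of 0.996 RPKM.

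A flat response to all hairpins also occurred at smaller sizes. Among genes with a mean rise of at least 1.5-fold, EFS, an adaptor of the CAS family, rose by 0.54, 0.64, 0.59 and 0.63 with the 4 hairpins. KLHDC3 rose by 0.72, 0.63, 0.56 and 0.58, MAP2K7, a kinase upstream of JNK, by 0.66, 0.69, 0.70 and 0.86, and ALG12, a mannosyltransferase of N-glycan assembly, by 0.57, 0.55, 0.62 and 0.72. On the falling side, LRP8 went from 10.1, 10.5 and 10.9 RPKM in pLKO to between 4.16 and 5.89 RPKM with hairpins, and NEURL1B, a ubiquitin ligase of the Notch pathway, changed by -0.54, -0.62, -0.67 and -0.55. These genes were picked for their evenness, so it is no result of its own.

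At the other extreme stood members whose average came mainly from 1 or 2 hairpins. TRPM8, a cold-sensing channel whose gene is androgen-responsive in prostate, was 5.43, 6.39 and 5.74 RPKM in pLKO. Its mean was 69.8 RPKM with shJarid2 but 7.74 RPKM with shG9a and 10.3 RPKM with shsuz12, and the 3 shPALI1 libraries read 11.7, 11.5 and 12.7 RPKM. All 12 hairpin libraries still lay above pLKO, the lowest at 6.79 RPKM. DIO3, which inactivates thyroid hormone, rose from a pLKO range of 0.449 to 0.657 RPKM to means of 9.59 RPKM with shG9a and 6.27 RPKM with shJarid2, but to 0.957 RPKM with shPALI1. HMOX1, the inducible heme oxygenase, reached 24.9 RPKM with shPALI1 against 6.35 to 13.5 RPKM with the others. MAGEC2, a cancer-testis antigen, changed by 0.29, 1.56, 1.15 and 1.78. DIO3 and MAGEC2 were under 1 RPKM in every pLKO library and passed the level filter only through the hairpin libraries. With the hairpins as one group the adjusted p of these 4 genes in limma was 0.29 for TRPM8, 0.12 for DIO3, 0.092 for HMOX1 and 0.06 for MAGEC2.

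The uneven falls included 3 genes of cell division. CCNA2 encodes cyclin A2, which drives S phase and entry into mitosis. It was 19.4, 20.4 and 18.2 RPKM in pLKO, with means of 13.6, 12.9, 4.50 and 6.76 RPKM in shPALI1, shG9a, shJarid2 and shsuz12. KIF4A, a chromosome-associated kinesin, changed by -0.42, -0.56, -1.13 and -1.79. SHCBP1, a protein of the midbody, changed by -0.81, -0.28, -1.08 and -1.64. RAP1B, a small GTPase of cell adhesion, had another order, with -0.57, -1.68, -1.20 and -0.37. None of these 4 was called with the hairpins as one group, at adjusted p of 0.094, 0.097, 0.076 and 0.09 in that order.

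All 25 mitotic genes passed as lower and 0 as higher, against 26.7% lower and 16.4% higher over all genes. Of the 25, 23 lay below pLKO with every hairpin (92%, against 18.9% of all genes). The median change of the list was -0.80, against -0.05 for all tested genes. TOP2A (topoisomerase II alpha) and ESPL1 (separase) were the exceptions to the side rule. TOP2A changed by 0.09 with shPALI1 and by -0.67, -1.14 and -1.35 with the others, and ESPL1 by 0.02, 0.14, -0.85 and -0.51. CDC20, the activator of the anaphase-promoting complex, was 67.9, 59.8 and 58.5 RPKM in pLKO and from 14.4 through 24.5 to 40.5 RPKM with hairpins. No hairpin library reached the pLKO range, and CDC20 fell by 1.35 (SE 0.08; limma adjusted p = 4.1e-08).

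The size of the mitotic fall differed between hairpins. The list's median was -0.29 with shPALI1, -0.50 with shG9a, -1.01 with shJarid2 and -1.24 with shsuz12. The number of the 25 that passed as lower was 13, 22, 25 and 25 in that order, where the shares over all genes were 25.1%, 24.7%, 27.2% and 32.8%. For 14 members the 12 hairpin libraries all lay below the pLKO libraries, and 13 passed with each hairpin. With the hairpins as one group, 7 of the 25 passed. CCNB1 (cyclin B1) illustrates the grading, with pLKO at 67.6, 68.3 and 61.2 RPKM and group means of 54.4, 46.0, 29.8 and 25.9 RPKM. NUSAP1 and PRC1, both spindle-associated proteins, fell by 0.95 and 0.86. NUSAP1 ranged from 16.7 to 35.5 RPKM with hairpins against 42.8, 47.1 and 43.2 RPKM in pLKO, and PRC1 from 10.2 to 21.0 RPKM against 26.5, 28.8 and 27.5 RPKM.

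The promoters of the mitotic genes were read for the words that mark cell cycle promoters. CCAAT is bound by NF-Y, and TTTGAA is the core of the cell cycle genes homology region, at which the MuvB complexes bind. The 250 bases upstream of each RefSeq start (GRCh38.p14) were searched on both strands. CCAAT was present in 18 of the 20 mitotic genes with a window (90%), against 42.2% of the 9867 tested genes with a window and 32% of all 35116 windows in the table, which also covers genes that were not tested. TTTGAA was present in 12 of 20 (60%), against 11.3% of tested genes and 13.3% of windows. Both words were present in 11 of 20 (55%), against 4.5% and 4.7%. The members below pLKO as a whole were near the tested genes. Of the 1904 with a window, 44.9% held CCAAT, 11.6% TTTGAA and 5.6% both words. The 9867 are fewer than 80% of the 12715 tested genes, so their shares are an incomplete background. A match is a description of the letters and no evidence of binding. The last 180 bases before the start are shown for the 4 mitotic genes with the smallest p, since they hold the shared words; capitals mark CCAAT or its reverse complement ATTGG, and TTTGAA or its reverse complement TTCAAA.
CDC20 promoter, chr1:43358801-43358980, plus strand: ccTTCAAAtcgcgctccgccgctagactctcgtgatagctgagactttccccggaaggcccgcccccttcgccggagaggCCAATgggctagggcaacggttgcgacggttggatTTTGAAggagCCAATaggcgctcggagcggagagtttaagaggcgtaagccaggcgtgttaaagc
NUSAP1 promoter, chr15:41332701-41332880, plus strand: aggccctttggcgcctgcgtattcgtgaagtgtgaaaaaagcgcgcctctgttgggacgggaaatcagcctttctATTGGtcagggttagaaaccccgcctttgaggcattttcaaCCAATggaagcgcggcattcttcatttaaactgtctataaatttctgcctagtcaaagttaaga
PRC1 promoter, chr15:90994536-90994715, minus strand: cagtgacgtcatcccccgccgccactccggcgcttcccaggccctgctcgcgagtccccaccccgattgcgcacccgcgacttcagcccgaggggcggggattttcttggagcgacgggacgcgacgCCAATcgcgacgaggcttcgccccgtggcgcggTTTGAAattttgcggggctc
CCNB1 promoter, chr5:69166970-69167149, plus strand: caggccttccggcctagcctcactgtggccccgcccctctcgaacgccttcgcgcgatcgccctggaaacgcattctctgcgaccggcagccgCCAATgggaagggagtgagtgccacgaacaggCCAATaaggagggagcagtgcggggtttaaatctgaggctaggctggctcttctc

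CDC20 has CCAAT beginning 100 and 55 bases before its start, with TTTGAA beginning 65 bases before it and its reverse complement at 178. PRC1 has CCAAT at 53 and TTTGAA at 20. CCNB1 has CCAAT at 87 and 55, and NUSAP1 has one in each orientation, at 105 and 64. NUSAP1 and CCNB1 hold no TTTGAA in these letters. Of the homology region only this exact word was searched, so other forms of it may be present. A link between the words and the falls was not tested.

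DNA replication genes followed the same order at a smaller size. Of 29 tested, 28 were lower (96.6%, against 26.7% of all genes) and 0 higher (against 16.4%). With every hairpin, 25 lay below pLKO (86.2%, against 18.9%), and the median change of the list was -0.53. The medians by hairpin were -0.27, -0.35, -0.67 and -0.94 for shPALI1, shG9a, shJarid2 and shsuz12, and 18, 18, 26 and 27 members passed as lower, while 2 passed as higher with shPALI1 and 2 with shG9a. GINS3, a subunit of the replicative helicase, was the 1 gene that did not pass (0.15; adjusted p = 0.069 in limma), and under each of the 3 other scalings 1 member of the list passed as higher. As one group of hairpins, 4 passed. TYMS, thymidylate synthase, stood at 27.3, 24.1 and 23.3 RPKM in pLKO and at 7.29 to 16.4 RPKM, median 9.83, with hairpins. TYMS fell by 1.19 (SE 0.07; limma adjusted p = 1.8e-08), most with shsuz12 (-1.61) and shG9a (-1.44). The helicase loader subunits MCM2 and MCM4 fell by 0.73 and 0.66 and CDC45, which joins the active helicase, by 0.95.

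The same windows of the replication genes were read for these words and for forms of the E2F site. CCAAT was present in 16 of 26 replication genes with a window (61.5%) and TTTGAA in 1. TTTGGCGC or TTTCCCGC, forms of the E2F site, occurred in 12 of the 26 (46.2%) and in 2 of 20 mitotic genes, against 4.1% of tested genes with a window and 1.9% of all windows. Among all members below pLKO with a window the share was 5.5%. The TYMS window is shown as the replication gene with the smallest p that holds an E2F word in its last 180 bases. The capitals mark the reverse complement of TTTCCCGC, which begins 39 bases before the start.
TYMS promoter, chr18:657473-657652, plus strand: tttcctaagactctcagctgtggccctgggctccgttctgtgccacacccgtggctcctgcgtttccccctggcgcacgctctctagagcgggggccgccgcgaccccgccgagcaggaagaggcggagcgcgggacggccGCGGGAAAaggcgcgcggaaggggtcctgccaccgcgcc

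**Figure D4:**
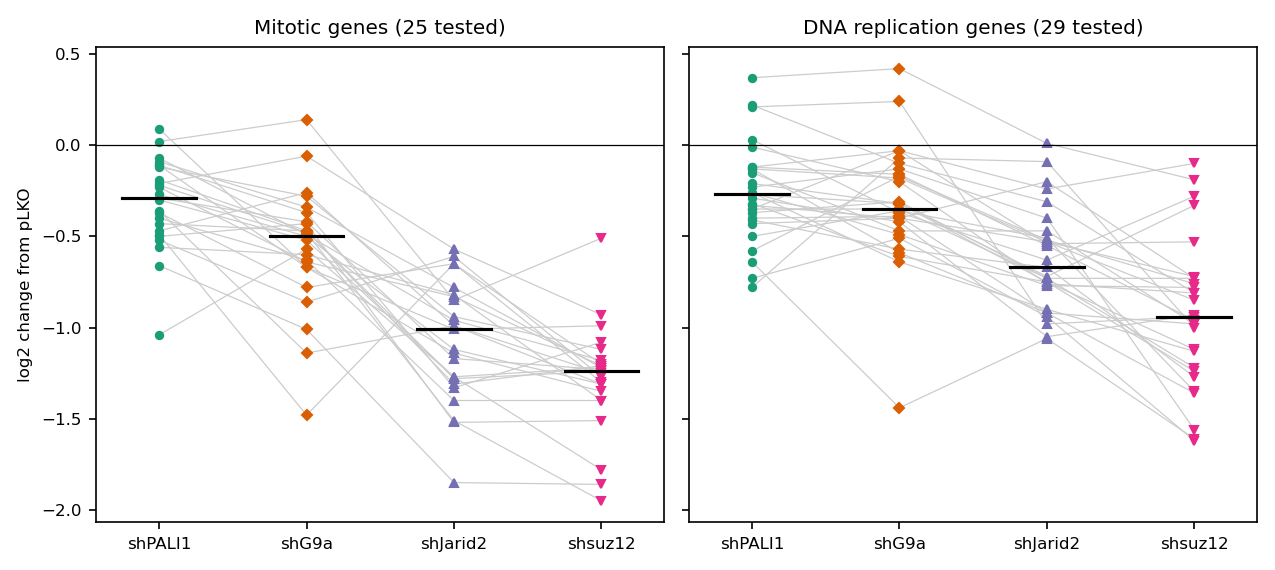
Points give the log2 change from pLKO of each tested mitotic (left, 25) and DNA replication gene (right, 29) with each hairpin, grey lines join a gene's 4 values, and black bars are medians. The medians step down from shPALI1 (-0.29 and -0.27) to shsuz12 (-1.24 and -0.94), and a few replication genes lie above 0 with shPALI1 and shG9a.

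Inhibitors of cyclin-dependent kinases did not rise with the fall of the cell division genes. Of 7 tested, 6 were lower (85.7%, against 26.7% of all genes) and 0 higher (against 16.4%), with a median of -0.46. Of the 7, 3 lay below pLKO with every hairpin (42.9%, against 18.9% of all genes), and 1 passed as higher with shPALI1 and 1 with shJarid2. CDKN3, a phosphatase counted in this list, fell by 0.84, CDKN2C (p18) by 0.82, and CDKN1A (p21) by 0.42. CDKN1B (p27) had a mean change of -0.04. The p53 target genes split by hairpin, with medians of 0.40, -0.66, -0.34 and 0.25, and 5 of 23 were higher (21.7%, near the 16.4% of all genes) and 11 lower (47.8%, against 26.7%). Within that list TNFRSF10B, a death receptor, rose with every hairpin (0.50), and the stress-response genes SESN1 and PLK3 fell with every one (-0.81 and -0.87).

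Microtubule building blocks fell in part. Of 13 tubulin genes, 9 were lower (69.2%, against 26.7% of all genes) and 2 higher (15.4%, near the 16.4% of all genes). With all 4 hairpins, 6 lay below pLKO (46.2%, against 18.9%), and the median of the list was -0.41. TUBA1B and TUBB4B, abundant alpha- and beta-tubulins, went from 226, 212 and 186 RPKM to a hairpin median of 115.7 RPKM and from 297, 262 and 234 RPKM to a median of 156 RPKM. TUBG1, which encodes the gamma-tubulin of spindle poles, went from 50.7, 42.6 and 41.5 RPKM to 28.3 RPKM. All hairpin libraries of these 3 lay below pLKO, and the 3 stayed called with the hairpins as one group. TUBB3, the neuronal beta-tubulin, was the opposite case, with changes of 2.05, 1.74 and 1.35 for shPALI1, shG9a and shsuz12 and -0.95 for shJarid2. Tubulin genes resemble each other in sequence, so reads could have been split between copies.

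Mitochondrial genes were lower in part and not with every hairpin. Of 63 tested nuclear genes of the respiratory chain and ATP synthase, 28 were lower (44.4%, against 26.7% of all genes) and 0 higher (against 16.4%). With every hairpin, 33 lay below pLKO (52.4%, against 18.9%), and the median of the list was -0.24. The medians by hairpin were -0.26, -0.26, -0.04 and -0.40, and 20, 27, 10 and 38 passed as lower, where the median of all genes with shJarid2 was -0.04 as well. The count of 28 depends on single libraries. It was 14 without pLKO replicate 1, 51 without shJarid2 replicate 3, 51 without the shJarid2 group, 18 without the shsuz12 group and 2 with the hairpins as one group, and the other scalings gave 20 to 38. SDHD, a membrane anchor of complex II, fell evenly, from 27.1, 31.1 and 28.5 RPKM to between 18.95 and 22.7 RPKM, with changes of -0.42, -0.50, -0.41 and -0.50. ATP5B, the catalytic beta subunit of ATP synthase, went from 777, 765 and 721 RPKM to 500 to 668 RPKM. ATP5G1 fell by 0.89, mainly with shsuz12 (-1.89), and has near-identical copies. Among 41 mitochondrial ribosomal proteins 18 were lower (43.9%) and 0 higher, with a median of -0.23 and medians by hairpin of -0.14, -0.20, -0.02 and -0.47. The lower count was 11 without pLKO replicate 1, 27 without shJarid2 replicate 3, 28 without the shJarid2 group and 8 without the shsuz12 group. MRPS7 was the 1 gene called with the hairpins as one group, with changes of -0.57, -0.52, -0.33 and -0.58.

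Androgen-responsive genes were led by a few shared falls, while the list as a whole differed by hairpin. Of 28 tested, 19 were lower (67.9%, against 26.7% of all genes) and 3 higher (10.7%, against 16.4%). With every hairpin, 8 lay below pLKO (28.6%, against 18.9% of all genes). The median was -1.04 with shPALI1, -0.39 with shG9a, 0.14 with shJarid2 and -0.31 with shsuz12, and 25, 16, 11 and 14 members passed as lower. With the hairpins as one group 4 were lower and 0 higher. Besides KLK3, the shared falls included TMPRSS2, a membrane serine protease, which went from 267, 258 and 242 RPKM to between 71.9 and 176 RPKM. PPAP2A, a lipid phosphatase gene, went from 109, 113 and 107 RPKM to 38.5 to 74.8 RPKM. The neighbour of KLK3 in the kallikrein family, KLK2, was no member, since it changed by -1.92, -1.50 and -0.56 but by 0.21 with shJarid2.

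The KLK3 promoter is shown because it carries a classical androgen response element near its start. AGAACA, one arm of that palindromic element, was searched in the same 250-base windows and was present in 12.4% of all 35116 and in 10.3% of tested genes with a window. Fewer than 80% of the androgen-responsive list had a window, so no share is given for it. In KLK3 the word, in capitals, begins 170 bases before the start.
KLK3 promoter, chr19:50854735-50854914, plus strand: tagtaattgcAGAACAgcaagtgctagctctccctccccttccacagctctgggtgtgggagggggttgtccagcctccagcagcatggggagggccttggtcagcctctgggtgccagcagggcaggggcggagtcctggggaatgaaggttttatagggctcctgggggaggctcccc

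Of 9 tested AP-1 and immediate early genes, 6 were higher (66.7%, against 16.4% of all genes) and 0 lower (against 26.7%). With every hairpin, 5 lay above pLKO (55.6%, against 10.5%), and the median of the list was 0.53. These genes encode transcription factors and phosphatases that respond quickly to growth factors and stress. DUSP1, a MAP kinase phosphatase, went from 7.72, 7.20 and 5.94 RPKM to between 10.3 and 19.3 RPKM and rose by 0.91 (SE 0.07; limma adjusted p = 2e-07). IER2 rose evenly, by 0.56, 0.50, 0.63 and 0.40. JUN and ATF3 were led by shPALI1, at 1.30 and 1.83, against 0.15 and 0.19 with shJarid2. JUNB was no member, changing by 1.08 with shJarid2 and by -0.32, -0.33 and -0.87 with shPALI1, shG9a and shsuz12. Counting the hairpins as one group left 3 of the 9 higher.

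Actin cytoskeleton genes were mixed, with 14 of 26 higher (53.8%, against 16.4% of all genes) and 5 lower (19.2%, against 26.7%). The lower count was 2 without pLKO replicate 1. In all 4 groups 7 lay above pLKO (26.9%, against 10.5%) and 3 below (11.5%, against 18.9%), and the median of the list was 0.31. ZYX, a focal adhesion protein, went from 11.965, 9.56 and 9.15 RPKM to between 15.8 and 53.1 RPKM and rose by 1.34. ACTA2, smooth muscle actin, went from 1.57, 1.66 and 1.58 RPKM to between 2.86 and 16.4 RPKM, most with shPALI1. TPM4 and PALLD, actin-binding proteins, rose chiefly with shPALI1, by 2.10 and 2.59, against 0.42 to 0.71 and 0.10 to 0.64 with the others. TAGLN2 fell with every hairpin (-0.65). Counting the hairpins as one group left 2 of the 26 higher and 0 lower.

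Lysosome genes had 11 of 22 higher (50%, against 16.4% of all genes) and 1 lower (4.5%, against 26.7%). Of the 22, 3 were members, all above (13.6%, near the 10.5% of all genes). Their medians were -0.23 with shPALI1 and 0.18, 0.38 and 0.48 with shG9a, shJarid2 and shsuz12. NPC1, the cholesterol exporter of lysosomes, typified this, with changes of -0.33, 1.36, 1.05 and 1.48. The count of genes higher was 6 without pLKO replicate 3, 6 without the shsuz12 group and 0 with the hairpins as one group. HEXA, a hexosaminidase subunit, changed by 0.26, 0.30, 0.36 and 0.46.

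The RNA interference machinery and the responses to foreign RNA were examined next. The pLKO cells were infected as well and received a control shRNA. A response that they share with the hairpin cells cannot show in this contrast, so the values below do not address it. Of 14 genes of the RNA interference machinery, 0 were higher (against 16.4% of all genes) and 1 lower (7.1%, against 26.7%). The median change of the list was -0.05, as for all tested genes. The 1 that fell was RAN, the GTPase of nuclear transport (-0.54), and it was no member, since it changed by 0.07 with shPALI1 and by -0.57, -0.77 and -0.89 with shG9a, shJarid2 and shsuz12. XPO5, the exporter of precursor small RNAs, was below pLKO with every hairpin but did not pass (-0.10; adjusted p = 0.18 in limma), and AGO2, the slicing Argonaute, had a mean change of -0.03.

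Of 16 interferon-stimulated genes, 2 were higher (12.5%) and 4 lower (25%), shares near the 16.4% and 26.7% of all genes, and 1 lay on each side of pLKO with all hairpins. The lower count was 1 without pLKO replicate 1, 0 without the shsuz12 group, 8 without the shPALI1 group and 0 with the hairpins as one group. Their medians by hairpin were 0.32, -0.10, -0.28 and -0.47. IRF7, an interferon regulatory factor, was the member above (0.32) and IFITM2, an antiviral membrane protein, the member below (-0.67), with -1.78 in shsuz12. In limma IRF7 did not pass without pLKO replicate 1 or 2 (adjusted p = 0.058 and 0.069) or with the hairpins as one group (0.34), and IFITM2 did not pass without the shsuz12 group (0.09) or with the hairpins as one group (0.4). Of 10 sensors of double-stranded RNA, 0 were higher (against 16.4% of all genes) and 3 lower (30%, near the 26.7% of all genes). None of the 10 was a member. IFIT1, an RNA-binding interferon-stimulated gene, changed by 1.00 with shPALI1 and by -0.15, -0.20 and 0.05 with the others.

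In the targeted complexes, of 15 PRC2 genes, 8 were lower (53.3%, against 26.7% of all genes) and 0 higher. The 8 include the targets SUZ12, JARID2 and C10orf12. None of the 3 passed without its own hairpin group, with changes of -0.16, 0.06 and -0.18 and adjusted p of 0.2, 0.38 and 0.41 in limma. EZH1, the second catalytic subunit (0.19, not called), lay above and SUZ12 below pLKO with every hairpin. EZH2, the catalytic subunit, changed by 0.10, -0.14, -0.53 and -0.58. Of 13 genes for lysine 9 methylation and its readers, 8 were lower (61.5%) and 2 higher (15.4%, against 16.4% of all genes), with 5 below and 2 above in all groups. The 8 include the target EHMT2, which did not pass without shG9a (-0.18; adjusted p = 0.051 in limma). SUV39H1, another lysine 9 methyltransferase, was graded like the mitotic genes, at -0.21, -0.39, -0.76 and -0.91. WIZ, a zinc finger partner of G9a, rose by 0.41 with all 4 groups above pLKO, at 0.10, 0.32, 0.73 and 0.49. With the hairpins as one group neither passed, at adjusted p of 0.098 and 0.15 in limma.

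**Figure D5:**
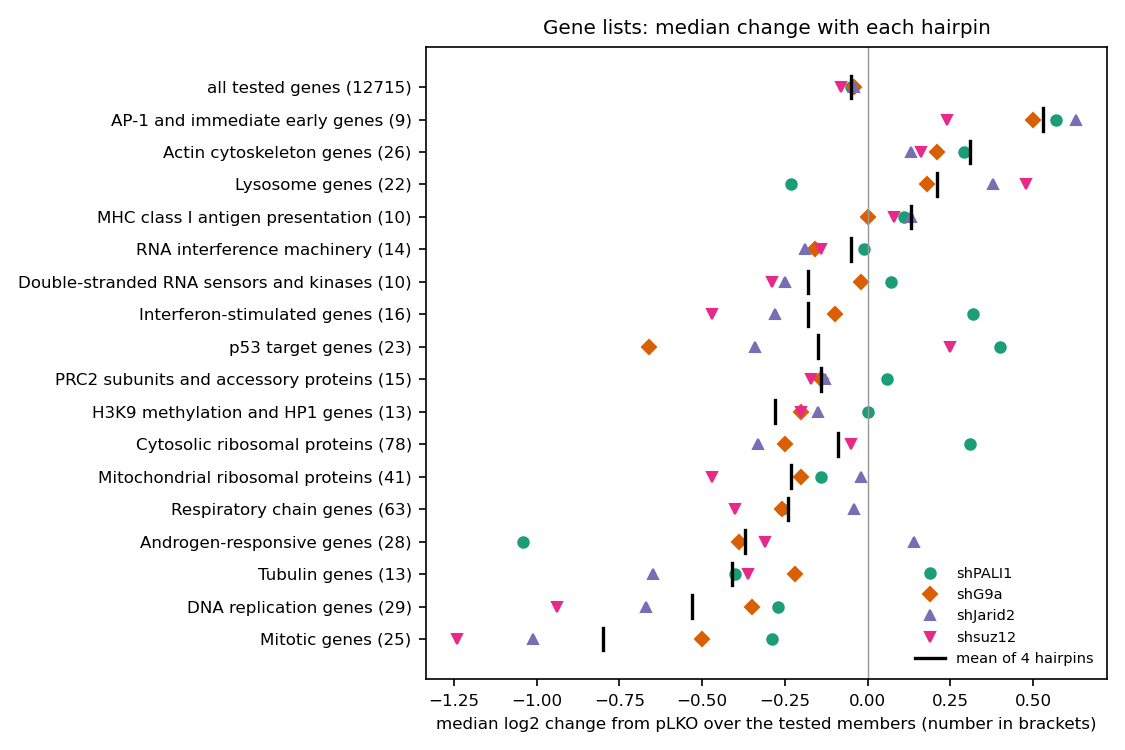
For 17 gene lists and all tested genes, symbols give the median log2 change from pLKO with each hairpin and the black bar the median of the 4-hairpin mean; the number of tested members stands in brackets. Mitotic and replication genes lie left of 0 with every hairpin, at -0.80 and -0.53, and AP-1 genes right of 0, at 0.53, while the androgen-responsive, lysosome and p53 lists have hairpins on both sides.

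Genes above pLKO spanned a median of 33.7 kb and genes below 23.4 kb, against 28.4 kb over all tested genes, with positions known for 91.7%, 95% and 94.4%. Their median level over the 15 libraries was 6.20 RPKM above, 9.21 RPKM below and 8.04 RPKM overall. Low genes carry fewer reads and thus more counting error, and the genes above pLKO were lower in level. These are descriptions of sets chosen by the side rule.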

How the data were processed

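The authors deposited 1 table of RPKM values for 15 LNCaP libraries. STAR and hg38 are named in the submitters' processing notes. The sources used here give no counter, annotation, strand setting or STAR version. Of 26475 rows, 26443 carried values. Depth was read from the deposited RPKM of short RNA genes at 1 read, where 93.0% to 94.8% of values under 50 reads lay within 0.05 of a whole number.

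Genes with at least 1 RPKM in at least 3 libraries were tested on log2(RPKM + 1), a scale that understates the change of low genes, with limma 3.58.1 in R 4.3.3 (two-sided moderated test with a mean-variance trend, 5 group means, each hairpin at a weight of 25%). Adjusted p are Benjamini-Hochberg values over 12715 genes, called under 0.05. Differences among hairpins were tested with a moderated F test. On simulated data 93 of 100 genes changed 1.5-fold and 99 of 100 changed 2-fold were recovered, with 9 false calls. The simulation gave all hairpin groups the same change, with normal noise independent between libraries. The genes it changed were all above 2 RPKM in pLKO. Its figures therefore do not cover lower genes or changes that differ between hairpins.

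Named genes are the targets the 12 rises and 12 falls with the largest smallest change among genes that passed, had no overlap with pLKO and reached 2 RPKM on the higher side, skipping pseudogenes, loci, antisense and small RNAs. Also named are 4 each way with a largest change over 4 times the smallest, 4 each way with the most even changes, the 4 members of each described list with the smallest p, and 2 genes on each side of the edge of the rule. Other list members, such as HEXA, KLK2 and JUNB, were named after their values were seen. Members and lists were chosen with earlier results of these data known. Gene positions are from GENCODE v29 (GRCh38) and promoter sequences from RefSeq (GRCh38.p14). Alternatives were pseudocounts of 0.1 and 0.5, 2 filters, 3 scalings, the replicate number as a block, the hairpins as 1 group, and leaving out each library or hairpin group. List counts under each alternative were added after seeing the data. Tables and plots were made with Python 3.11.15, pandas 2.3.3, numpy 2.4.6 and matplotlib 3.10.9.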

Additional observations from a re-analysis of the deposited data

How the results depend on the processing

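Treating the 12 hairpin libraries as 1 group gave 179 genes higher and 256 lower. Without the shJarid2 group, 2258 genes lay above and 3661 below pLKO, all libraries lay above for 721 and below for 1447, and 606 rose and 1231 fell with each hairpin left. Without shPALI1 these were 2296 above, 808 and 1243 without overlap, and 661 and 891 with each hairpin. A rule over fewer groups is easier to meet by construction. With no filter 2347 genes lay above and 3812 below, from more genes tested, and quantile normalization gave 402 rises with each hairpin; the cause was not tested.

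Leaving out 1 library at a time gave 1578 to 2476 genes higher and 2611 to 4124 lower, the upper values without shJarid2 replicate 3. The ranges were 1298 to 1481 above, 2271 to 2702 below, 343 to 540 and 687 to 989 without overlap, 198 to 331 and 326 to 688 with each hairpin, and 10300 to 10999 in the F test. With the replicate number as a block, 2037 genes were higher and 3287 lower. The numbers share no stated culture or day: deviations of same-numbered libraries correlated at -0.271 to 0.301 (median -0.007), over 0.1 in 7 of 30 pairs, so they were not taken as pairs.

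Over 96 named genes and 2680 alternative values, 97 lost and 12 gained a call, and 2 reversed, JARID2 without shJarid2 (0.06) and LCOR without shPALI1 (0.01). Depth limits the low genes, and the 3 pLKO libraries enter every comparison.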

Other observations

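Single genes of several other lists moved with every hairpin although their lists did not. These genes were picked after their values were seen. Over all tested genes 16.4% were higher and 26.7% lower. TAPBP, which loads peptides on MHC class I, rose by 0.55, 1.24, 1.20 and 0.94 with shPALI1, shG9a, shJarid2 and shsuz12, while of the 10 tested class I genes 2 were higher and 1 lower. TAP2, a peptide transporter subunit of that list, fell by 0.30. SUN2, an inner nuclear membrane protein, rose by 0.58, 0.82, 0.90 and 0.80, and LBR, the lamin B receptor, fell by 0.60; of 12 nuclear lamina genes 2 were higher and 5 lower. EPCAM and CD24, epithelial surface proteins, rose with every hairpin (0.45 and 0.94), whereas the luminal list had 7 of 15 higher and 5 lower.

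Of 11 tested cancer-testis genes, 4 were higher (36.4%) and 3 lower (27.3%), against 16.4% and 26.7% of all genes. The 4 that rose were MAGEA10 (0.76), MAGEC1 (0.65), PAGE1 (0.77) and MAGEC2 (1.20), of which MAGEC1 and MAGEC2 were under 1 RPKM in every pLKO library and passed the level filter only through the hairpin libraries. Their relatives MAGEA6 and GAGE1 fell by 0.26 and 0.41, and near-identical copies of these X-linked families may share reads. Clustered protocadherins had 8 of 13 higher (61.5%) and 0 lower, against 16.4% and 26.7% of all genes. The 1 member was PCDHGC3 (0.49), which made 7.7% of the list, against 10.5% of all genes above pLKO. The list's median was 1.02 with shPALI1 and -0.17 with shJarid2. Cholesterol synthesis genes had 11 of 23 higher (47.8%) and 6 lower (26.1%, near the 26.7% of all genes). That list had 1 member on each side, at medians of -0.41, 0.58, 0.11 and 0.06. Cytosolic ribosomal proteins had 2 of 78 lower (2.6%, against 26.7% of all genes) and 0 higher, at medians of 0.31, -0.25, -0.33 and -0.05.

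The other lists are given beside the 16.4% higher and 26.7% lower of all tested genes, and a share near these is no result about a list. Among 14 heat shock genes 3 were higher and 4 lower (21.4% and 28.6%), among 19 NRF2 genes 4 and 4 (21.1% each), among 18 unfolded protein response genes 3 and 5 (16.7% and 27.8%), and among 22 ATF4 genes 3 and 7 (13.6% and 31.8%), all near the shares of all genes. Metallothioneins and zinc transporters had 2 of 14 higher and 8 lower, and fatty acid synthesis genes 4 of 17 higher and 6 lower. Glycolysis and hypoxia genes had 5 of 20 in each direction, and histones that depend on replication had 2 of 18 higher and 5 lower. Proteasome subunits had 5 of 31 lower and 0 higher, YAP targets 5 of 10 higher and 2 lower, and NF-kB targets 1 of 8 higher and 2 lower. HOX genes had 1 and 1 of 10, genes reported as silenced by EZH2 3 and 2 of 9, imprinted genes 4 and 3 of 11, and mesenchymal genes 1 and 3 of 5.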
